A study of Homo sapiens with 6 samples.

Results

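The genes that copy DNA and supply its building blocks were examined in RBE, a human cell line established from an intrahepatic cholangiocarcinoma (a tumour of bile ducts within the liver). The list holds 51 genes, chosen by their known roles from origin recognition to deoxynucleotide synthesis, and all 51 were found by Ensembl identifier among the 63186 rows of the deposited gene count table. The study compared 3 cultures transfected with siRNA against CHAF1A (si-CHAF1A) with 3 cultures transfected with a control siRNA (si-Ctrl). Cells of both groups were transfected at about 60% confluency with a lipid reagent, received fresh medium after 24 h and were harvested at 48 h. The product of CHAF1A is the largest part of chromatin assembly factor CAF-1, which binds the replication clamp and puts histones on newly copied DNA, and the series asks how chromatin and RNA acetylation bear on transposable elements in this cancer. Cells of a single line were used, and whether a single siRNA or a mixture was used is not stated in the labels, so an effect of siRNA sequence and an effect of CHAF1A loss cannot be told apart.

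DNA replication runs in steps. The origin recognition complex marks start sites and, with CDC6 and CDT1, loads the ring-shaped MCM helicase in G1, while geminin blocks reloading later in the cycle. The CDC7-DBF4 kinase, MCM10, CDC45 and the GINS complex turn the loaded ring into a moving helicase, polymerase alpha-primase lays down primers, and polymerases delta and epsilon extend them with the sliding clamp PCNA, which the RFC complex loads. Many of these genes are transcribed at the G1/S border under E2F transcription factors, and their messages are abundant in dividing tumour cells.

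The libraries held 15643381 to 20918997 counts, and every member had between 92 and 5936 counts in every library. CHAF1A stood at 11.1, 12.9 and 11.2 CPM (each count relative to the library total scaled with its TMM factor) in si-CHAF1A 1, 2 and 3, against 51.5, 59.8 and 51.0 CPM in si-Ctrl 1, 2 and 3. The groups did not overlap and CHAF1A fell 4.61-fold (edgeR adjusted p = 2.57e-10, log2 fold change -2.21 with SE 0.10). The library si-Ctrl 2 stood apart from the other controls on the second principal component (-29.6, against 14.9 and 13.9). Counts are therefore also given without it. Among the 3 control libraries it held the highest value of 17 members and the lowest value of 24, and these counts were not compared with those of the other controls. The line's label was met by its biliary epithelial markers, of which all 10 were above 1 CPM in every library, with summed levels of 5578 to 6126 CPM in si-CHAF1A and 4397 to 5119 CPM in si-Ctrl. Markers of hepatocytes (5 genes) summed to 0.574 to 0.951 CPM in si-CHAF1A and 0.303 to 0.860 CPM in si-Ctrl, and leukocyte markers (5 genes) to 0.617 to 0.747 CPM in si-CHAF1A and 1.09 to 1.32 CPM in si-Ctrl. Fibroblast markers (6 genes) summed to 16.02 to 36.2 CPM in si-CHAF1A and 8.66 to 11.8 CPM in si-Ctrl. DCN and LUM had 0 counts in every control library and at most 6 and 4 counts in any library. COL1A1 averaged 15.5 CPM in si-CHAF1A and 8.42 CPM in si-Ctrl, and in si-CHAF1A 1 it was at 23.4 CPM and COL1A2 at 5.47 CPM. PDGFRB was 4.11-fold higher in si-CHAF1A (edgeR adjusted p = 4.56e-06). Endothelial markers (4 genes) summed to 6.604 to 8.86 CPM in si-CHAF1A and 2.41 to 3.77 CPM in si-Ctrl, with VWF 5.83-fold higher in si-CHAF1A (edgeR adjusted p = 3.5e-05). The part of these markers in the results below was not tested.

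After CHAF1A knockdown, replication and nucleotide supply genes were mostly lower. Of the 51 members, all of which passed the filter on low counts, 33 were lower and 0 higher at an edgeR adjusted p under 0.05, beside a background of 19.3% of all 15911 tested genes lower and 18.5% higher. At an unadjusted p under 0.05 1 member was higher, PCNA, and DESeq2 called 0 higher and 30 lower. Without si-Ctrl 2, 39 members were lower and 1, RPA1, higher, beside 22.5% lower and 21.3% higher of the 16503 genes tested in that fit. The median log2 fold change of the members was -0.30, with a range of -1.20 to 0.14, while the median of all tested genes was 0.00. In 37 members every si-CHAF1A library lay below every si-Ctrl library, beside 24.1% of all tested genes. Most falls were under 1.5-fold. Of all 51 members 7 were lower by at least 1.5-fold, beside 5.55% of all tested genes. Among lower genes alone these were 7 of the 33 members, beside 883 of all 3064 lower genes. Summed over the 51 members, the level was 2657, 2673 and 2733 CPM in si-CHAF1A, against 3270, 3415 and 3290 CPM in si-Ctrl, so the mean sum on the TMM-scaled CPM scale was 0.808 of that in the control. In bulk RNA, fewer cells in the phase that expresses these genes and less RNA per cell cannot be told apart.

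**Figure D1:**
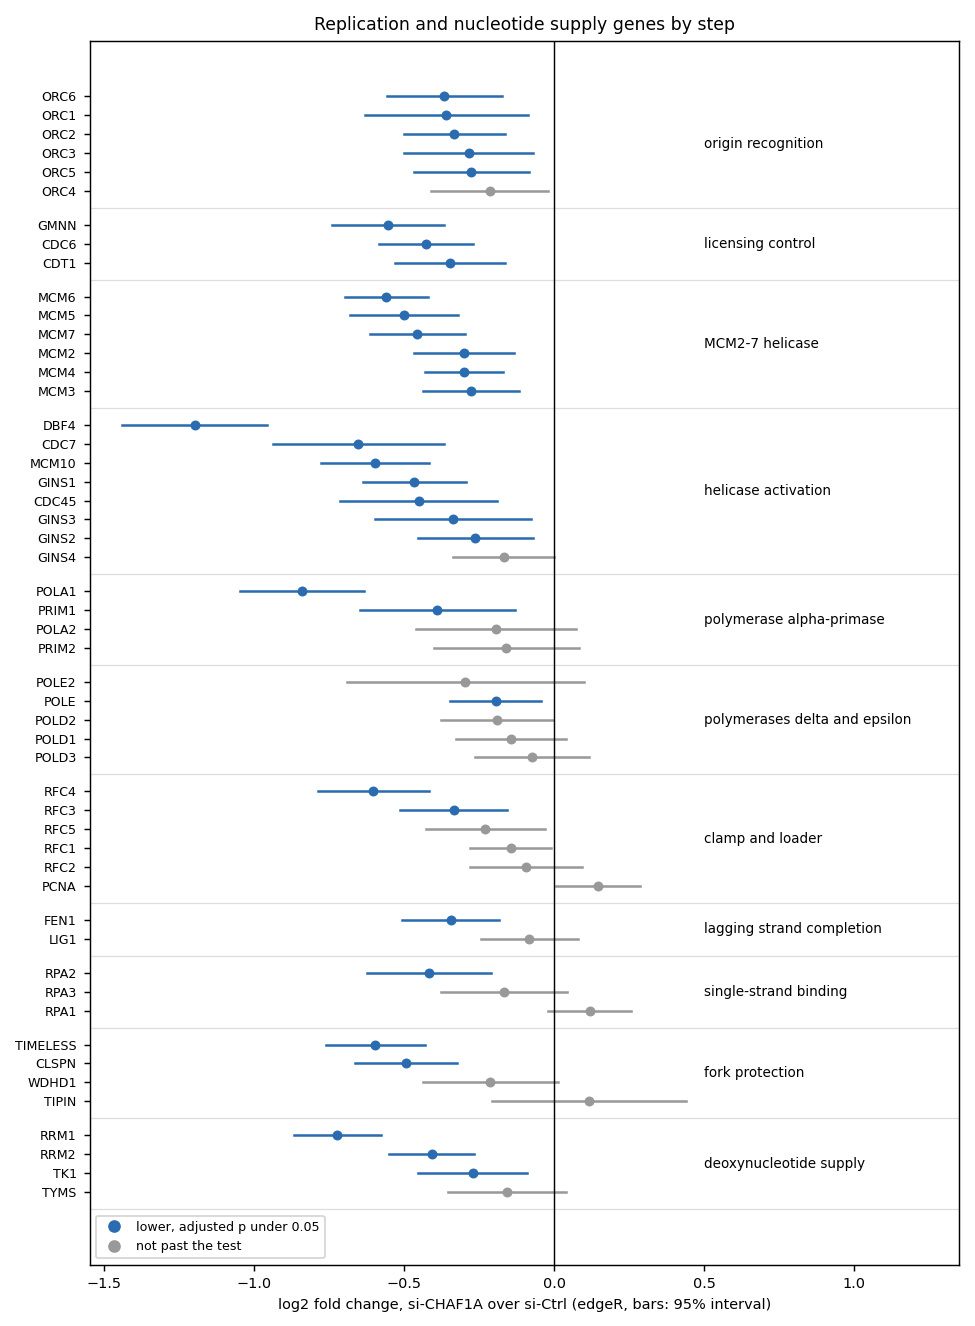
Log2 fold change of si-CHAF1A over si-Ctrl (horizontal axis) for the 51 members, grouped by step from origin recognition to deoxynucleotide supply. Points are edgeR estimates from 3 libraries per group, bars are 95% intervals, blue marks adjusted p under 0.05 and grey marks members not past the test. DBF4 lies farthest to the left at -1.20, and PCNA, RPA1 and TIPIN are the members to the right of 0.

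By step, 5 of 6 origin recognition genes, 3 of 3 licensing controls, 6 of 6 MCM2-7 genes and 7 of 8 helicase activators were lower. The origin recognition count was 2 without si-CHAF1A 1 or si-Ctrl 1, 3 without si-CHAF1A 2, si-CHAF1A 3 or si-Ctrl 3 and 2 with library totals, and that of helicase activation was 5 at the lowest. At the working fork the counts were 2 of 4 for polymerase alpha-primase, 1 of 5 for polymerases delta and epsilon, 2 of 6 for the clamp and its loader, 1 of 2 for lagging strand completion, 1 of 3 for single-strand binding and 2 of 4 for fork protection. Deoxynucleotide supply had 3 of 4 lower. Whether these shares differ between steps was not tested.

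**Figure D2:**
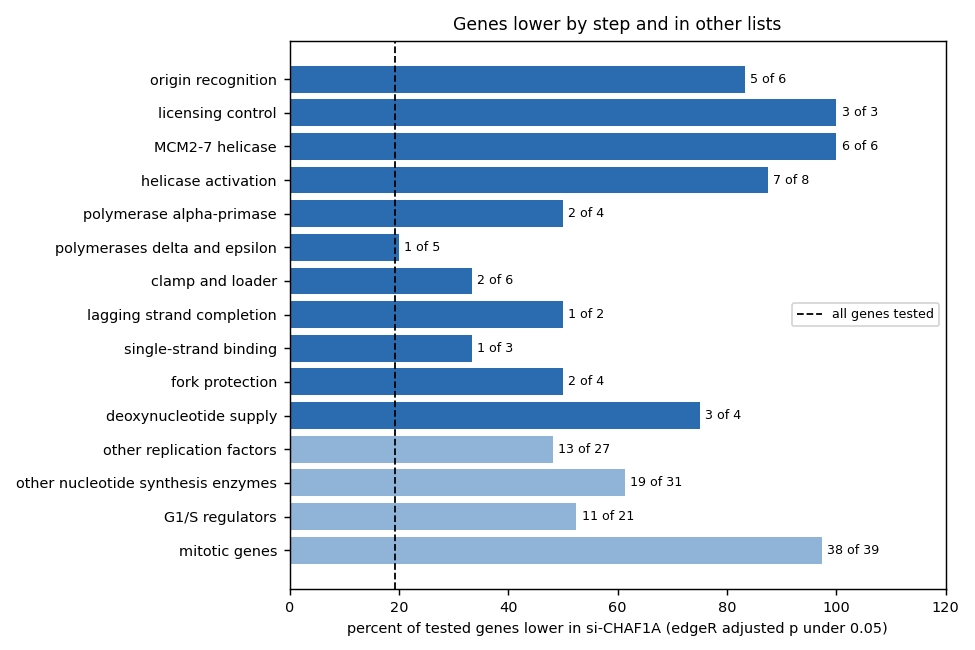
Percent of tested genes lower in si-CHAF1A (edgeR adjusted p under 0.05) for each replication step (dark bars) and for 4 other lists (light bars), with the number of genes beside each bar. The dashed line is the share of all tested genes, 19.3%, and polymerases delta and epsilon (1 of 5) lie close to it.

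Promoter sequence was set beside the changes, since E2F sites and CCAAT boxes are known features of these genes. RefSeq windows (GRCh38.p14) from 250 bases before to 50 bases after the annotated start were available for 45 members. The E2F cores TTCCCGC and TTGGCGC, on either strand, were present in 26 of these 45 windows (57.8%), against 14.4% of the 11286 windows of tested genes. Among lower members 18 of 30 windows held a core, and among members not past the test 8 of 15. The CCAAT box was in 25 of 45 windows (55.6%), against 36.1% of the windows of tested genes, with 19 of 30 among lower members and 6 of 15 among the others. The CHR core TTTGAA, known from genes expressed late in the cycle, was in 2 of 45 windows (4.4%), those of DBF4 and RRM1, against 9.7% of the windows of tested genes. TTGGCGC and a CCAAT box on the other strand can share the letters TTGG, though no matches overlap in the windows printed, and a match describes letters only.

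The windows of 6 members are printed to set some of the larger falls (DBF4, POLA1, RRM1 and MCM6) beside a pair that did not fall (PCNA and RPA1), 5′ to 3′ on the strand of the gene, with any E2F core, CCAAT box or CHR core in capitals on either strand. They lie at chr7:87876243-87876542, plus strand (DBF4), chrX:24693668-24693967, plus strand (POLA1), chr11:4094435-4094734, plus strand (RRM1), chr2:135876394-135876693, minus strand (MCM6), chr20:5126573-5126872, minus strand (PCNA) and chr17:1829755-1830054, plus strand (RPA1).
DBF4: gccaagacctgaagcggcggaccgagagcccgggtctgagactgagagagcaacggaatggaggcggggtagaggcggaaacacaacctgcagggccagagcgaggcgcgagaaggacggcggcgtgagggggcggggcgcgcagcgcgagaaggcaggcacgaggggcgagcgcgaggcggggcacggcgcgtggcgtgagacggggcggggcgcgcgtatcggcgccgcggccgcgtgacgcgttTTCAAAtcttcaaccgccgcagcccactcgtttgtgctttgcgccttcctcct
POLA1: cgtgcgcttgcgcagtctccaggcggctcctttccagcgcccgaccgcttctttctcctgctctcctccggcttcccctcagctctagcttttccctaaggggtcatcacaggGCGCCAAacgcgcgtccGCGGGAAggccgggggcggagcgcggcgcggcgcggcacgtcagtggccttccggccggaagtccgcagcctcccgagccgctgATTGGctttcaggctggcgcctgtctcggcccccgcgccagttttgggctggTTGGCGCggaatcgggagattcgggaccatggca
RRM1: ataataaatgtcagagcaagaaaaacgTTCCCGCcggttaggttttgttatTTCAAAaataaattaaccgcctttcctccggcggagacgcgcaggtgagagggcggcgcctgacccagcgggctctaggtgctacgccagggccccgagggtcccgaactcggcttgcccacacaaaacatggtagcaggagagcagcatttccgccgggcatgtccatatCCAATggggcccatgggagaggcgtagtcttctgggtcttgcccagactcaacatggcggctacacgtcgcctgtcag
MCM6: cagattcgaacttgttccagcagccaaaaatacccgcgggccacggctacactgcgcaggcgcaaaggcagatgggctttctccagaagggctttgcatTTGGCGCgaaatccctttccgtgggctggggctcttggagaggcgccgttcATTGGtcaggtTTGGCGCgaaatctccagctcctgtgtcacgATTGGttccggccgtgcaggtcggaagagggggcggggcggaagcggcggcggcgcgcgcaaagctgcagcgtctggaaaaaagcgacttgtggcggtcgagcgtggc
PCNA: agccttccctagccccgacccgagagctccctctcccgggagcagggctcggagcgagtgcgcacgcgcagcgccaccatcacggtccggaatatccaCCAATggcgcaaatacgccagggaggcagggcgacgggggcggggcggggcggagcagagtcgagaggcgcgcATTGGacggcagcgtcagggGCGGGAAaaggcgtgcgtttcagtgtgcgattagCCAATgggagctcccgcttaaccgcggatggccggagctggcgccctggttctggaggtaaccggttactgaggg
RPA1: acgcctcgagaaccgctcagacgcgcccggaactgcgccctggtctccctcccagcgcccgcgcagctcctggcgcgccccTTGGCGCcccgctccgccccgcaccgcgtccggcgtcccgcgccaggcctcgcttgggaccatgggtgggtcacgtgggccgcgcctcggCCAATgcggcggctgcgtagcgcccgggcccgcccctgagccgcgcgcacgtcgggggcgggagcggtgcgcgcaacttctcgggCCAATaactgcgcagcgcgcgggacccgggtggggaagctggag
The POLA1 window holds 3 E2F cores and 1 CCAAT box, that of MCM6 holds 2 of each, and that of RRM1 holds 1 E2F core, 1 CCAAT box and 1 CHR core. The DBF4 window, of the member with the largest fall, holds 1 CHR core and no E2F core or CCAAT box. PCNA has 1 E2F core and 3 CCAAT boxes, and RPA1 has 1 and 2. These 2 were chosen for their values, and the window of TIPIN, the other member with a log2 fold change above 0, holds no E2F core and 1 CCAAT box.

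Origin recognition genes showed shallow falls. ORC2, a core subunit of the complex, was at 38.6, 38.3 and 35.7 CPM in si-CHAF1A, against 49.6, 44.4 and 48.1 CPM in si-Ctrl, without overlap (log2 fold change -0.33 with an SE of 0.08, edgeR adjusted p = 0.00349). ORC6, the smallest subunit, fell by 0.37, ORC1, which binds ATP and is degraded after the start of S phase in human cells, fell by 0.36, ORC3 fell by 0.29 and ORC5 fell by 0.28 on the log2 scale. ORC4 had 38.0, 40.7 and 38.4 CPM in si-CHAF1A, against 48.2, 39.0 and 49.0 CPM in si-Ctrl, where si-Ctrl 2 overlapped the knockdown range. Its log2 fold change of -0.22 (95% interval -0.41 to -0.02) missed the threshold (edgeR adjusted p = 0.0778) and was -0.32 without si-Ctrl 2 (edgeR adjusted p = 0.000146). The call of ORC1 was lost without si-CHAF1A 1, si-CHAF1A 3 or si-Ctrl 1 (highest edgeR adjusted p = 0.172), that of ORC3 without any library but si-Ctrl 2 (0.142), and that of ORC5 without si-CHAF1A 1, si-CHAF1A 2, si-Ctrl 1 or si-Ctrl 3 (0.122), so 2 to 6 of the 6 subunits were lower when 1 library was left out.

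The 3 licensing controls all fell, the loaders and the inhibitor alike. Geminin (GMNN), which holds CDT1 inactive after licensing, was at 24.5, 22.0 and 25.1 CPM in si-CHAF1A, against 35.0, 33.5 and 36.8 CPM in si-Ctrl (log2 fold change -0.55 with an SE of 0.09, edgeR adjusted p = 0.000135). CDC6, the loader ATPase, fell by 0.43 (58.6 ± 4.43 CPM in si-CHAF1A and 78.8 ± 2.32 CPM in si-Ctrl, SD, n = 3 each). CDT1 was at 39.5, 39.8 and 38.6 CPM in si-CHAF1A, against 50.7, 55.1 and 44.3 CPM in si-Ctrl, and fell by 0.35 (edgeR adjusted p = 0.00463). In none of the 3 genes did the groups overlap, and 24.1% of all tested genes likewise had every si-CHAF1A library below every si-Ctrl library. The log2 ratio of CDT1 to GMNN averaged 0.72 ± 0.12 in si-CHAF1A and 0.51 ± 0.23 in si-Ctrl, with overlapping values.

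All 6 subunits of the MCM2-7 ring fell, by 1.21-fold to 1.47-fold. MCM6 had the smallest p, at 92.1, 87.6 and 95.02 CPM in si-CHAF1A, against 134, 137 and 133 CPM in si-Ctrl (log2 fold change of -0.56 with an SE of 0.06, edgeR adjusted p = 6.39e-06). MCM5 was at 49.0, 43.8 and 44.4 CPM in si-CHAF1A, against 58.8, 71.9 and 63.3 CPM in si-Ctrl, with si-Ctrl 2 the highest (log2 fold change -0.50 with an SE of 0.09, edgeR adjusted p = 0.000246). MCM7 fell by 0.46, MCM2 fell by 0.30 and MCM4 fell by 0.30 on the log2 scale. MCM3 changed least, with 146, 161 and 162 CPM in si-CHAF1A, against 185, 210 and 175 CPM in si-Ctrl (log2 fold change -0.28 with an SE of 0.08, edgeR adjusted p = 0.00836), and its call was lost without si-CHAF1A 1 (edgeR adjusted p = 0.0628). The summed level of the 6 genes was 759 ± 15.3 CPM in si-CHAF1A and 990 ± 57.7 CPM in si-Ctrl (SD, n = 3 each). Without si-Ctrl 2 the log2 fold changes were smaller for MCM7 (-0.37), MCM2 (-0.23), MCM3 (-0.21) and MCM5 (-0.42). They were near the values above for MCM6 (-0.55) and MCM4 (-0.31), and each gene passed.

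Helicase activation held the largest fall of the whole set. DBF4 (ENSG00000006634, chromosome 7, 87876216 to 87909541, plus strand), the regulatory subunit that switches on the kinase CDC7, stood at 17.2, 18.1 and 18.4 CPM in si-CHAF1A, against 44.6, 33.5 and 45.7 CPM in si-Ctrl. Every knockdown library was far under the lowest control, si-Ctrl 2, and the level fell 2.30-fold (log2 fold change -1.20 with an SE of 0.11, edgeR adjusted p = 7.84e-07, rank 335 of all tested genes by p). Its exons overlap those of SLC25A40 on the opposite strand over 142 bases, and the strand setting of the counting is not given in the sources used here. CDC7, the catalytic subunit, was at 9.04, 7.64 and 11.2 CPM in si-CHAF1A, against 15.3, 13.7 and 14.9 CPM in si-Ctrl (log2 fold change -0.65 with an SE of 0.13, edgeR adjusted p = 0.0012). Both subunits of the kinase therefore fell, and neither gene's groups overlapped, beside 24.1% of all tested genes with every si-CHAF1A library below every si-Ctrl library.

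MCM10, which helps the loaded helicase to open and tethers polymerase alpha, was at 24.6, 25.1 and 27.9 CPM in si-CHAF1A, against 40.3, 37.5 and 39.9 CPM in si-Ctrl (log2 fold change -0.60 with an SE of 0.09, edgeR adjusted p = 5.02e-05). CDC45, a subunit of the active helicase, fell by 0.45, to 10.7 ± 1.45 CPM in si-CHAF1A, against 14.7 ± 1.20 CPM in si-Ctrl (SD, n = 3 each). Of the GINS subunits, which complete the helicase, GINS1 fell by 0.47, GINS3 fell by 0.34 and GINS2 fell by 0.26 on the log2 scale. GINS4 had 31.2, 30.8 and 31.2 CPM in si-CHAF1A, against 35.6, 33.7 and 35.5 CPM in si-Ctrl. Its groups did not overlap, yet the log2 fold change of -0.17 (95% interval -0.34 to -0.00) did not pass (edgeR adjusted p = 0.106), though it did without si-Ctrl 2 (edgeR adjusted p = 0.0319). The calls of GINS2 and GINS3 were lost under DESeq2, and without si-CHAF1A 2 (edgeR adjusted p = 0.147 and 0.189) or si-Ctrl 3 (0.0909 and 0.0861), that of GINS2 also without si-CHAF1A 3 (0.0647), that of GINS3 also without si-CHAF1A 1 (0.0686) or si-Ctrl 1 (0.0785), and that of CDC45 without si-CHAF1A 1 (0.0557).

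**Figure D3:**
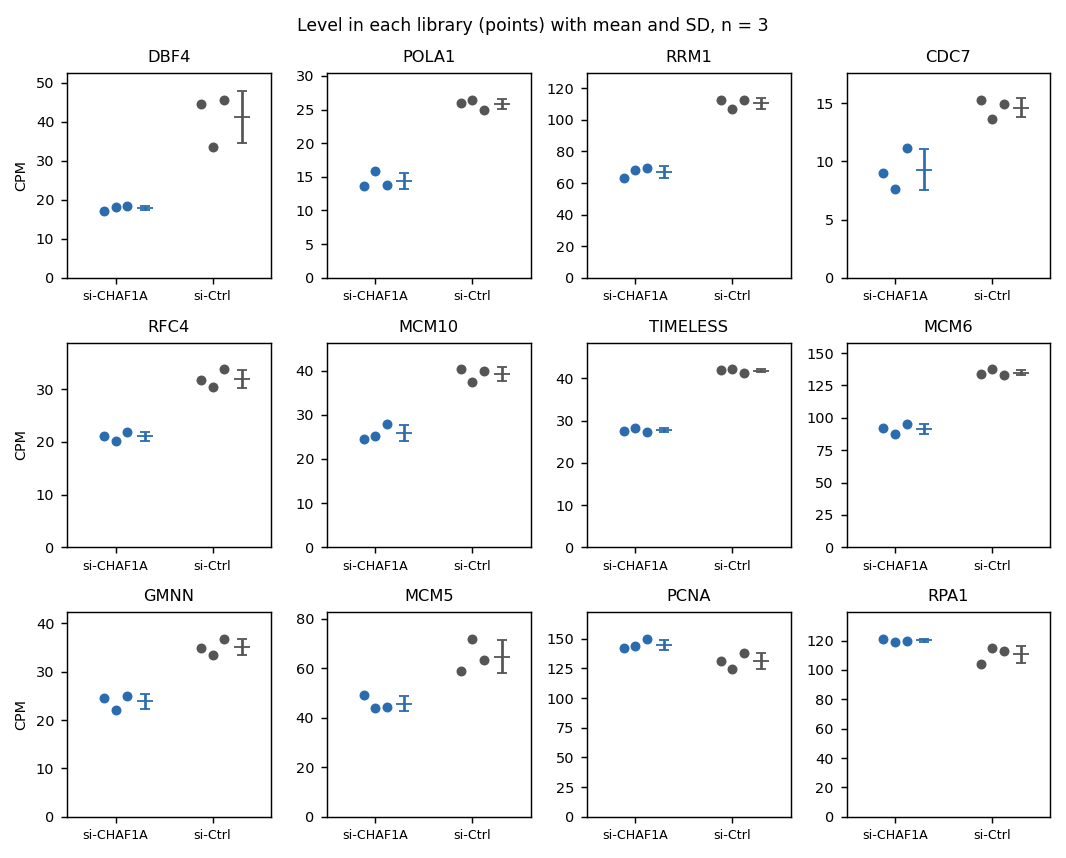
Level in CPM (vertical axes from 0) of 12 members in each si-CHAF1A library (blue) and each si-Ctrl library (grey), with the mean and SD of 3 libraries beside the points. The first 10 panels are the lower members with a log2 fold change of -0.50 or beyond. None overlaps between the groups, which is no separate result, since they were picked by their change. Of all tested genes 48.2% do not overlap. The last panels show PCNA and RPA1, whose si-CHAF1A libraries lie above the controls.

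In polymerase alpha-primase the catalytic subunit had the largest fall. POLA1 (ENSG00000101868, chromosome X, 24693919 to 24996986, plus strand), the polymerase that extends primers, was at 13.6, 15.8 and 13.7 CPM in si-CHAF1A, against 25.9, 26.4 and 24.9 CPM in si-Ctrl. The groups lay well apart and the level fell 1.79-fold (log2 fold change -0.84 with an SE of 0.10, edgeR adjusted p = 6.41e-06). The small primase subunit PRIM1 fell by 0.39 (edgeR adjusted p = 0.0189), a call lost without si-CHAF1A 2, si-Ctrl 1 or si-Ctrl 3 (edgeR adjusted p = 0.0566 to 0.108). The accessory subunit POLA2 was at 10.9 ± 1.47 CPM in si-CHAF1A and 12.5 ± 1.11 CPM in si-Ctrl (log2 fold change -0.19, 95% interval -0.46 to 0.07). The large primase subunit PRIM2 had 18.3, 20.7 and 20.5 CPM in si-CHAF1A, against 25.0, 18.4 and 23.2 CPM in si-Ctrl, and its overlapping groups gave a log2 fold change of -0.16 (95% interval -0.40 to 0.08, edgeR adjusted p = 0.294), while without si-Ctrl 2 it was -0.29 and passed (edgeR adjusted p = 0.0121).

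Of the replicative polymerases 1 of 5 genes (20%) was lower, close to the 19.3% of all tested genes. POLE, the leading-strand polymerase, was at 102, 97.4 and 97.7 CPM in si-CHAF1A, against 108, 124 and 108 CPM in si-Ctrl, and fell by 0.20 on the log2 scale (SE 0.07, edgeR adjusted p = 0.0405). That call was lost in 5 of the 12 alternatives, among them each left-out si-CHAF1A library (edgeR adjusted p = 0.0745 to 0.142). POLD3, an accessory subunit of the lagging-strand polymerase, had 30.7, 34.7 and 36.2 CPM in si-CHAF1A, against 35.3, 33.6 and 38.2 CPM in si-Ctrl, with overlapping groups (log2 fold change -0.07, 95% interval -0.26 to 0.11). The catalytic subunit POLD1 (-0.14) and its partner POLD2 (-0.19) did not pass, nor did POLE2 (-0.30), whose interval of -0.69 to 0.10 was the widest of the set. POLE2 passed without si-Ctrl 2 (log2 fold change -0.51, edgeR adjusted p = 0.00792) and POLD2 without si-Ctrl 3 (-0.27, edgeR adjusted p = 0.0355). Without si-Ctrl 2, which had the highest POLD2 level of the controls, POLD2 was at -0.07 (edgeR adjusted p = 0.266). In that fit POLD1 was at -0.05, POLD3 at -0.12 and POLE at -0.13, of which POLE alone passed (edgeR adjusted p = 0.0279).

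The clamp was not lower, while 2 subunits of its loader were. PCNA (ENSG00000132646, chromosome 20, 5114953 to 5126626, minus strand), the ring that holds polymerases on DNA and recruits CHAF1A, was at 142, 144 and 150 CPM in si-CHAF1A, against 131, 125 and 138 CPM in si-Ctrl. Each knockdown library was above each control, but the log2 fold change of 0.14 (95% interval 0.01 to 0.28) did not pass (edgeR adjusted p = 0.0955). It passed with library totals in place of TMM factors (log2 fold change 0.19, edgeR adjusted p = 0.0391). Library totals also moved the median log2 fold change of all tested genes, from 0.00 to 0.05. Whether PCNA rose beyond that shift was not tested. The values of PCNA are given by library because they were seen to be high. In the loader, the small subunit RFC4 was at 21.1, 20.2 and 21.8 CPM in si-CHAF1A, against 31.8, 30.3 and 33.7 CPM in si-Ctrl (log2 fold change -0.60 with an SE of 0.09, edgeR adjusted p = 6.1e-05). RFC3 fell by 0.34. RFC5 (-0.23) and the large subunit RFC1 (-0.15) did not pass, though both did without si-Ctrl 2 (edgeR adjusted p = 0.000856 and 0.00997). RFC2 had 44.6, 40.4 and 39.4 CPM in si-CHAF1A, against 40.2, 48.4 and 44.0 CPM in si-Ctrl, with overlapping groups (log2 fold change -0.09, 95% interval -0.28 to 0.09).

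Lagging strand completion had 1 gene lower and 1 not past. FEN1, the nuclease that trims flaps off Okazaki fragments, was at 85.2, 90.1 and 92.2 CPM in si-CHAF1A, against 104, 125 and 111 CPM in si-Ctrl (log2 fold change -0.35 with an SE of 0.08, edgeR adjusted p = 0.00193). LIG1, the ligase that seals them, had 51.4, 52.5 and 45.9 CPM in si-CHAF1A, against 51.4, 53.4 and 53.9 CPM in si-Ctrl, where the groups overlapped (log2 fold change -0.08, 95% interval -0.25 to 0.08).

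Of the 3 subunits of RPA, which coats single-stranded DNA, 1 fell. RPA2 was at 19.6, 18.3 and 19.7 CPM in si-CHAF1A, against 27.6, 26.5 and 23.0 CPM in si-Ctrl, and fell by 0.42 on the log2 scale (SE 0.10, edgeR adjusted p = 0.00299). RPA1, the large DNA-binding subunit, had 121, 119 and 120 CPM in si-CHAF1A, against 104, 115 and 113 CPM in si-Ctrl. All knockdown libraries were above the controls, with a log2 fold change of 0.12 (95% interval -0.02 to 0.26) that did not pass (edgeR adjusted p = 0.175). Without si-Ctrl 2 it was 0.14 and passed (edgeR adjusted p = 0.0191). RPA3 was at -0.17 (95% interval -0.38 to 0.04).

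Among fork protection factors, TIMELESS, which couples the helicase to polymerases, was at 27.5, 28.2 and 27.3 CPM in si-CHAF1A, against 42.1, 42.1 and 41.4 CPM in si-Ctrl, among the tightest replicate groups of the set (log2 fold change -0.60 with an SE of 0.08, edgeR adjusted p = 2.09e-05). Its partner TIPIN had 9.27, 7.29 and 7.85 CPM in si-CHAF1A, against 6.91, 8.89 and 6.65 CPM in si-Ctrl, with overlapping groups (log2 fold change 0.11, 95% interval -0.21 to 0.44). The checkpoint adaptor CLSPN fell by 0.49 on the log2 scale (33.5 ± 2.49 CPM in si-CHAF1A and 47.2 ± 0.713 CPM in si-Ctrl, SD, n = 3 each). WDHD1, which links the helicase to polymerase alpha, was at -0.21 and did not pass (edgeR adjusted p = 0.128).

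In deoxynucleotide supply, RRM1 (ENSG00000167325, chromosome 11, 4094707 to 4138876, plus strand), the large subunit of ribonucleotide reductase, was at 63.1, 68.0 and 69.8 CPM in si-CHAF1A, against 113, 107 and 113 CPM in si-Ctrl. The groups did not overlap and the level fell 1.65-fold (log2 fold change -0.72 with an SE of 0.07, edgeR adjusted p = 8e-07). RRM2, the small subunit whose level changes through the cell cycle, fell by 0.41 on the log2 scale, to 121 ± 6.55 CPM in si-CHAF1A, against 161 ± 4.88 CPM in si-Ctrl (SD, n = 3 each). The salvage kinase TK1 fell by 0.27 (edgeR adjusted p = 0.0201), a call lost without si-CHAF1A 2 (edgeR adjusted p = 0.134). Without si-Ctrl 2 the log2 fold change of TK1 was -0.18, while that of RRM1 was -0.76, that of RRM2 -0.44 and that of TYMS -0.18. TYMS, which makes thymidylate, had 35.8, 36.2 and 37.5 CPM in si-CHAF1A, against 36.1, 39.8 and 46.3 CPM in si-Ctrl, with overlapping groups (log2 fold change -0.16, 95% interval -0.35 to 0.04). The exons of TYMS overlap those of ENOSF1 on the opposite strand over 967 bases, so its counts are less certain.

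The balance between subunits was then measured. Each subunit was compared with the mean log2 level of its partners in 12 complexes or pairs, which gave 36 ratios. Of these, 12 did not overlap between the groups. Single-gene levels did not overlap in 48.2% of all tested genes, and ratios between other genes were not measured. Ratios of 1 complex share subunits, so they are not separate results. Each of the 12 ratios without overlap had an exact two-sided permutation p of 0.1, the smallest that 3 libraries against 3 allow, and 0.3 after adjustment over the 36. The log2 ratio of POLA1 to the other subunits of its complex averaged 0.06 ± 0.22 in si-CHAF1A and 0.66 ± 0.16 in si-Ctrl (SD, n = 3 each). That of TIMELESS to TIPIN averaged 1.77 ± 0.19 in si-CHAF1A and 2.50 ± 0.22 in si-Ctrl. The ratio of RRM1 to RRM2 averaged -0.85 ± 0.04 in si-CHAF1A and -0.54 ± 0.01 in si-Ctrl. RFC4 against the other RFC subunits was at -1.24 ± 0.07 in si-CHAF1A and -0.83 ± 0.06 in si-Ctrl, and RPA2 against its partners was at -1.20 ± 0.08 in si-CHAF1A and -0.81 ± 0.15 in si-Ctrl. RPA1 against its partners (2.77 ± 0.06 in si-CHAF1A and 2.36 ± 0.13 in si-Ctrl) and CDC7 against DBF4 (-0.97 ± 0.26 in si-CHAF1A and -1.48 ± 0.17 in si-Ctrl) lay on the other side. In the MCM2-7 ring the differences were smaller, with MCM6 at -0.20 and MCM2 at 0.12 relative to their partners.

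**Figure D4:**
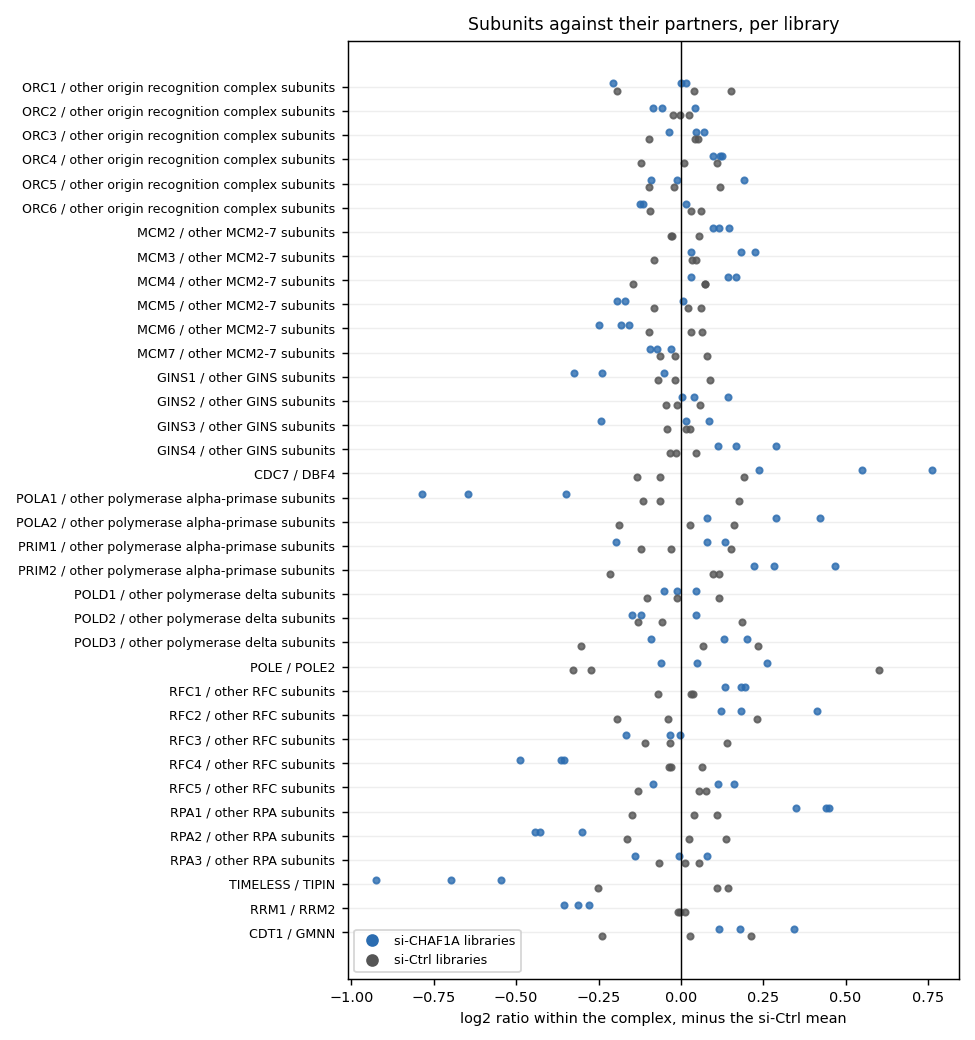
Log2 ratio of each subunit to its partners in every si-CHAF1A library (blue) and si-Ctrl library (grey), shifted so that the si-Ctrl mean is 0. Blue and grey points are apart for 12 of 36 ratios, among them POLA1 and TIMELESS to the left and RPA1 and CDC7 to the right, while all origin recognition subunits overlap.

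Levels of different genes were compared per length, as TPM computed with the merged exon lengths of GENCODE 29, which may not be the annotation used for counting. PCNA was the most abundant member, at 309 ± 5.30 TPM in si-CHAF1A and 270.5 ± 29.1 TPM in si-Ctrl (SD, n = 3 each), and POLA2 the least, at 5.98 ± 0.759 TPM in si-CHAF1A and 6.63 ± 0.688 TPM in si-Ctrl. GINS3 and POLE2 did not differ from POLA2 beyond their spread in either group. The exons of POLA2 overlap those of AP000944.2 on the same strand over 2012 of 5726 merged bases, so its level is less certain. Within the MCM2-7 ring the TPM order MCM7, MCM3, MCM4, MCM6, MCM2 and MCM5 held in both groups. MCM7 was at 139 ± 4.48 TPM and MCM5 at 19.5 ± 1.46 TPM in si-CHAF1A, against 183 ± 8.33 TPM and 26.6 ± 1.26 TPM in si-Ctrl. This order rests on merged lengths that pool the exons of all transcripts. They were 7338 bases for MCM5 and 6973 for MCM4, against 4386 for MCM7 and 3650 for MCM3, and other lengths were not tried. In si-CHAF1A, MCM7 and MCM3 (134 ± 6.17 TPM) did not differ beyond their spread. RRM2 stood above RRM1 in both groups, at 71.2 ± 3.23 and 50.2 ± 2.00 TPM in si-CHAF1A, against 91.6 ± 8.29 and 80.3 ± 7.39 TPM in si-Ctrl, where the spreads met. POLA1 was at 7.10 ± 0.597 TPM in si-CHAF1A and 12.3 ± 0.549 TPM in si-Ctrl.

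**Figure D5:**
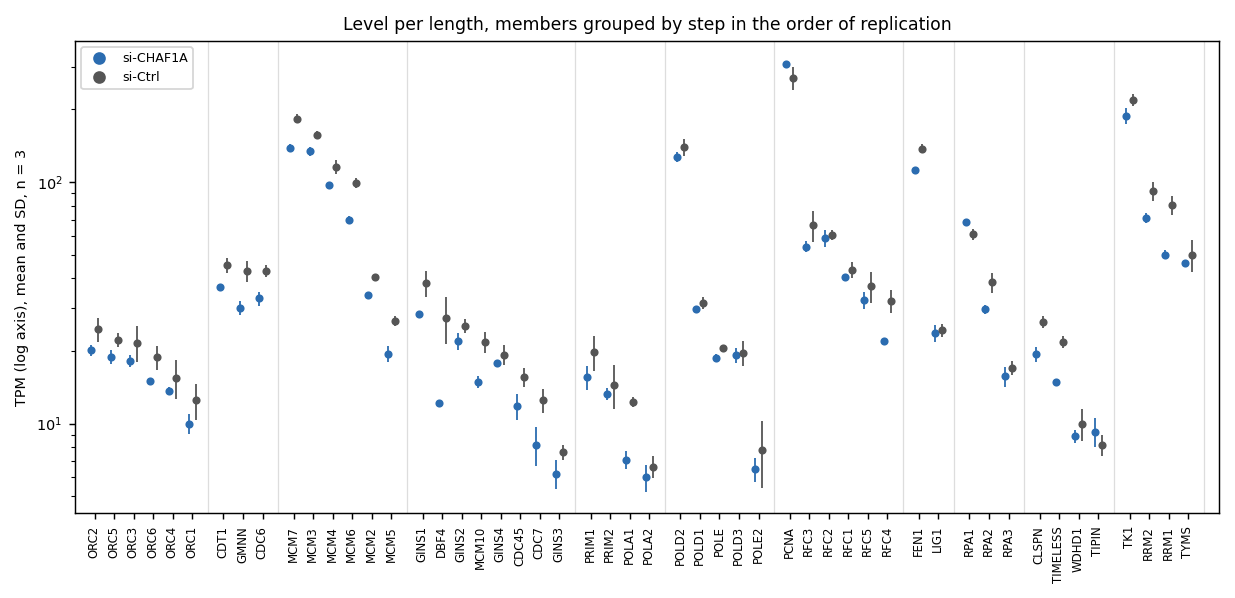
Level per length in TPM (log axis) of the 51 members, in groups by step and by falling si-Ctrl level within a step, with si-CHAF1A in blue left of si-Ctrl in grey and SD bars over 3 libraries. PCNA is highest in both groups and POLA2 lowest, and blue points lie under grey ones in most members.

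Other genes of the pathway were counted from hand-written lists. Of 27 tested replication factors outside the set 13 were lower (48.1%, beside 19.3% of all tested genes). None was higher, beside 18.5% of all tested genes (0 at an unadjusted p under 0.05 and 0 by DESeq2). Their median log2 fold change was -0.27. DSCC1, part of the alternative clamp loader, fell 3.14-fold to 8.40 ± 1.599 CPM in si-CHAF1A, against 26.5 ± 2.75 CPM in si-Ctrl. The topoisomerases TOP2A and TOP1 fell by 0.88 and by 0.53 on the log2 scale, the origin firing factor TICRR by 0.67, the helicase MCM8 by 0.79 and the nuclease-helicase DNA2 by 0.72. Of 31 tested enzymes of nucleotide synthesis and transport 19 were lower (61.3%, beside 19.3% of all tested genes) and 4 higher (12.9%, beside 18.5%), with a median of -0.28. The thymidylate kinase DTYMK and the dUTPase DUT each fell by 0.65, ADSS1 of AMP synthesis fell by 0.67, the purine enzyme PAICS by 0.34 and the diphosphate kinase NME1 by 0.41 on the log2 scale. The 4 higher genes were RRM2B, the p53-inducible small subunit of ribonucleotide reductase (215 ± 11.02 CPM in si-CHAF1A and 157 ± 20.9 CPM in si-Ctrl, log2 fold change 0.46), the deoxynucleotide hydrolase SAMHD1 (0.35), the nucleoside transporter SLC29A1 (0.26) and the CTP synthase CTPS2 (0.27), the last 3 named after their values were seen.

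Of 21 regulators of the G1/S border 11 were lower (52.4%, beside 19.3% of all tested genes) and 2 higher (9.52%, beside 18.5%). Cyclin D1 (CCND1) fell by 0.91, its kinases CDK6 and CDK4 by 0.96 and by 0.39, cyclin A (CCNA2) by 1.01, and the repressors E2F6 and E2F7 by 0.89 and by 0.62 on the log2 scale. The higher genes were the cyclin E gene CCNE1 (0.34) and the pocket protein RBL2 (0.30). E2F1 was at -0.07 (edgeR adjusted p = 0.537), and all 3 were named after their values were seen. The other cyclin E gene, CCNE2, was at -0.24 and did not pass (edgeR adjusted p = 0.23). E2F2, E2F3 and E2F8 were also lower, by 0.43, 0.30 and 0.39, while E2F4 (-0.01) and E2F5 (-0.22) did not pass. These too were named after their values were seen. Of 39 tested mitotic genes 38 were lower (97.4%, beside 19.3% of all tested genes) and 0 higher (0 at an unadjusted p under 0.05 and 0 by DESeq2). Their median log2 fold change was -0.90, against -0.30 for the replication members. AURKA, PLK1, TPX2, MKI67, CDC20 and ANLN fell by 1.46, 1.27, 1.08, 0.95, 1.12 and 0.95 on that scale. Summed, the 40 mitotic genes were at 2209 ± 92.5 CPM in si-CHAF1A and 4116 ± 73.7 CPM in si-Ctrl (SD, n = 3 each), and the part of a change in cell cycle phase in the replication genes was not tested.

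The 7-base words GAAGAGA and AAGAGAA had earlier been picked on these data as more frequent in 3′ UTRs of lower genes, so their counts here are descriptions. Over all tested genes, 1060 of 2801 lower genes (37.8%) carried at least 1 of the words, against 1911 of 7050 genes not past the test (27.1%). Of the replication members, 7 of 33 lower ones (21.2%) held a word, against 5 of 18 not past the test (27.8%). Among the 39 members without a word 26 were lower, with a median log2 fold change of -0.33, and among the 12 with a word 7 were lower, with a median of -0.28. DBF4, RRM1, CDC7 and TIMELESS carry a word, while POLA1, RFC4, MCM10, MCM6, GMNN and MCM5 do not.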

How the data were processed

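Gene-level read counts of 6 RBE libraries (3 si-CHAF1A, 3 si-Ctrl, reads of 150 bp) were taken as the authors deposited them, as 1 table of whole numbers without normalisation. The submitters' processing notes name fastp 0.20.1, HISAT2 2.1.0, SAMtools 1.9, featureCounts 2.0.1, StringTie 2.1.4 and hg38 without their roles or settings, while the annotation, the strand setting and how reads with several matches were counted are not stated there. The design text speaks of strand-specific libraries. Column names in the table are NC or si with a number of 1 to 3. Those named NC were taken as si-Ctrl, a reading that rests on the names, and the CHAF1A level is given for it. The design text calls the samples biological replicates and says no more, so p-values measure the spread between these 6 cultures. No pair of replicates was a duplicate (chi-square per degree of freedom 2.30 to 13.7). All 63186 rows name a gene (0 others), and columns of other samples numbered 0.

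Genes were filtered with edgeR's filterByExpr (minimum count 10, minimum total 15), which left 15911, and tested with edgeR 4.0.16 in R 4.3.3 (robust quasi-likelihood, TMM, no covariate), with Benjamini-Hochberg adjustment over all of them at 0.05. CPM uses TMM-scaled totals, and SE is the fold change divided by the square root of F. Alternatives were DESeq2 1.42.0, RLE factors, library totals, no filter or a CPM of 1 in 3 libraries, each library left out, and the replicate number as a block. The test was checked on counts drawn with known folds. The members and lists were chosen with earlier results of these data known. By rule, values of every library were given for the member with the smallest p and the member nearest to 0 in each step, and for lower members with a log2 fold change of -0.50 or beyond, and up to 6 genes were named from each other list. Gene positions come from GENCODE 29 (GRCh38, also called hg38). Its exons show overlaps with other genes for 23 members, and 12 have a named pseudogene, whose reads the counting could have shared.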

Additional observations from a re-analysis of the deposited data

How the results depend on the processing

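Over 12 alternatives, 23 of the 33 lower members were lower in each, and 0 of 612 member values changed sign with a call. The others (ORC1, ORC3, ORC5, MCM3, CDC45, GINS2, GINS3, PRIM1, POLE and TK1) missed the threshold in at least 1. The count of lower members was 33 with RLE factors, 30 with DESeq2, 27 with library totals, 34 without a filter and 26 to 39 with 1 library left out, and the median stayed between -0.33 and -0.25. With library totals 2 members were higher (PCNA and RPA1), and 0 to 1 with 1 library left out, RPA1 without si-Ctrl 2. The median log2 fold change of all tested genes was 0.05 with library totals, against 0.00 with TMM factors. Library totals also gave 2 lower origin recognition genes, 0 lower polymerases delta and epsilon, 1 higher gene of the clamp and loader and 1 of single-strand binding. Without a filter 2 polymerases delta and epsilon were lower. Leaving out 1 library gave 2 to 6 lower genes of origin recognition, 1 to 3 of polymerase alpha-primase, 0 to 2 of polymerases delta and epsilon and 2 to 4 of the clamp and loader, 0 to 1 higher genes of single-strand binding, 2 to 4 higher nucleotide enzymes and 1 to 2 higher G1/S regulators. Fewer samples enter these fits, and the causes were not otherwise tested. Without si-Ctrl 1 or si-Ctrl 3 the log2 ratio difference of POLE to POLE2 was -0.05 or -0.08, and without si-Ctrl 2 that of POLD3 to its partners was -0.07, against 0.08 for each with all libraries. The CHR core was in 1 window rather than 2 when the 150 bases nearest the start were searched. Equal replicate numbers were not a sign of pairing (correlations of deviations -0.09, -0.06 and -0.00, with 0 of 3 libraries closest to their own number). With the replicate number as a block 29 members were lower and 0 higher, with 0 polymerases delta and epsilon, and 2723 genes lower and 2675 higher in all.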

Other observations

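Several genes of the lists that are no members were assigned very few counts in both groups. NUSAP1 of the spindle was at 0.384 CPM in si-CHAF1A and 0.464 CPM in si-Ctrl, the ribonuclease subunit RNASEH2A at 0.322 CPM in si-CHAF1A and 0.403 CPM in si-Ctrl, the alternative clamp loader subunit CHTF8 at 0.641 CPM in si-CHAF1A and 0.562 CPM in si-Ctrl, and the phosphoribosyl pyrophosphate synthetase PRPS2 at 0.0561 CPM in si-CHAF1A and 0.0426 CPM in si-Ctrl. These 4 were under the filter on low counts and were named after their values were seen. The values are reads assigned under an annotation that is not given, whether overlapping genes took reads from them was not tested, and they are not a measure of low expression.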
